A study of Mus musculus with 38 samples.

Results

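The cell cycle genes described here were 40 genes fixed by name, 18 that act in DNA replication and 22 that act in mitosis, and all 40 were listed in each expression table of the series. The tables held 35976 genes in 17 bulk libraries, 37108 genes in 8 bulk libraries and 20695 genes in single cells. The study asked how BMP4 (bone morphogenetic protein 4, a signalling protein) and the transcription factor SALL4 steer the fate of mouse embryonic fibroblasts (MEFs). All cells came from MEFs of E13.5 embryos from males carrying the OG2 transgene (GFP under Oct4 control) and 129S4/SvJaeJ females. Apart from the MEFs of 1 accessibility map, they were infected with retroviruses and then changed to iCD3 medium, and whether the day 0 library had been in that medium was not given in the sources used here. JGES is the mixture of Jdp2, Glis1, Esrrb and Sall4, JGE leaves out Sall4, and JGEO and JGESO add Oct4 to JGE and JGES. JGES cells were sampled at days 0, 1, 3, 5 and 7 without BMP4 and at days 1, 3, 5 and 7 with 10 ng/ml BMP4, and the other mixtures at day 7 with and without it. Cells given SALL4WT alone, or SALL4delN12 (which lacks the N-terminal 12 amino acids that bind the NuRD repressor complex), were sampled at days 1, 5, 9 and 11 without BMP4. Each condition had 1 library in the expression data, and Cut&Tag replicates had been merged, so there was no error between replicates. The words "higher" and "lower" compare libraries except where a fit over days or mixtures is named. The number of embryos behind each library was not given in the sources used here.

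A dividing cell copies its DNA in S phase and separates the copies in mitosis. In late G1, E2F factors switch on the replication genes, among them the Mcm2 to Mcm7 subunits of the helicase that opens the double helix and Pcna, the clamp that holds the polymerase. In G2, the B-Myb and FoxM1 factors bound to the MuvB core raise the mitosis genes, such as the cyclin Ccnb1 with its kinase Cdk1, and Cdc20 and Ube2c, which direct the destruction of cyclins at the end of mitosis. Resting cells hold both groups down through the DREAM complex. Fibroblasts in culture divide, pluripotent cells divide fast with a short G1, and many differentiating cells slow down or stop.

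The promoters of both groups are shown because the sequences by which these factors find them can be read in a short stretch before the gene's start. RefSeq windows of 300 bases (GRCm38.p6, 250 before and 50 after the start) were matched for 33 of the 40 genes, 14 replication and 19 mitosis genes. The unmatched genes were Mcm4, Gins2, Ccne2, Pole, Ccna2, Aurkb and Tpx2. Both strands were searched for E2F-like letters, namely TTCCCGC in its best known form and the variants TTGGCGC and also TTCGCGC and further TTGCCGC, for the CHR element, which was either TTTGAA or else TTCGAA, and for the CCAAT box. The 180 bases before the start are printed 5′ to 3′ for 2 replication genes and 3 mitosis genes, on the strand of the gene, with every match on either strand in capitals. Overlapping E2F-like matches run together, and a CCAAT box on the opposite strand reads ATTGG.
Mcm5, chr8:75109329-75109508, plus strand: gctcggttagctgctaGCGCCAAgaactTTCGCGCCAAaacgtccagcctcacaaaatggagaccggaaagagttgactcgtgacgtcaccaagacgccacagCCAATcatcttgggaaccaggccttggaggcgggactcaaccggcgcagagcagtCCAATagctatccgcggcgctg
Mcm6, chr1:128359706-128359885, minus strand: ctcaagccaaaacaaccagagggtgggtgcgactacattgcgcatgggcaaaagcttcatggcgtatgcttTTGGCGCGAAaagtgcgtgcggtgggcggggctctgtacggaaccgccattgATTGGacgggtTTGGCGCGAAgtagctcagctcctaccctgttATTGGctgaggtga
Cdk1, chr10:69352913-69353092, minus strand: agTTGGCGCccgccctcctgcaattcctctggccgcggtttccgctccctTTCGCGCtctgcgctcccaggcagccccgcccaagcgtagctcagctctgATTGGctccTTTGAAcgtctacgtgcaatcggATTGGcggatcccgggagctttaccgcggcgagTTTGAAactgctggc
Cdc20, chr4:118437344-118437523, minus strand: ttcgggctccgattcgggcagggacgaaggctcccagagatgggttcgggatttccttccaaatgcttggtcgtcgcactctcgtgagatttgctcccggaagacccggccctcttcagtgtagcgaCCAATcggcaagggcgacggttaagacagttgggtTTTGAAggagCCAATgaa
Ube2c, chr2:164769749-164769928, plus strand: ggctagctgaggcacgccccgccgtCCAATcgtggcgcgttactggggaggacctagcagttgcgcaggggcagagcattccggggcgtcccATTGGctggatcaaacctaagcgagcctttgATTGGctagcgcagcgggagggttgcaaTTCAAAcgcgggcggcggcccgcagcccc

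In these windows Mcm5 and Mcm6 held E2F-like letters and CCAAT boxes but no CHR, Cdc20 and Ube2c held a CHR with CCAAT boxes but no E2F-like letters, and Cdk1 held every kind. Over the matched genes, E2F-like letters were found at 8 of 14 replication genes (57.1%) and 4 of 19 mitosis genes (21.1%), against 9.57% of the 32851 mouse promoter windows. The CHR was found at 15 of 19 mitosis genes (78.9%), at 21.4% of the replication genes and at 19.2% of all windows. The CCAAT box was common to both groups, at 71.4% and 84.2% against 37.4% of all windows. A CHR together with a CCAAT box occurred at 14 of 19 mitosis genes (73.7%), at 21.4% of replication genes and in 7.52% of all windows. Of the 22 CHR matches at mitosis genes, 13 lay within 50 bases of the start, and 3 of the 25 E2F-like matches overlapped a CCAAT box. A match is a description of the letters and not a measured binding site.

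The promoters were accessible in every sample in which accessibility was measured. Tn5 accessibility (ATAC-seq) was assayed in MEFs and in SALL4WT and SALL4delN12 cells at days 1, 5, 9 and 11, and all 40 genes had a peak within 2000 bases of a start in all 9 samples, as did 92.5% of the 7673 genes that averaged at least 5 FPKM and 55.4% of the 21842 coding genes. SALL4 itself (Cut&Tag, an antibody-directed map, at day 6) had a peak at 16 of 18 replication and 19 of 22 mitosis genes in SALL4WT cells and at 14 and 17 in SALL4delN12 cells. Genes that averaged at least 5 FPKM had one in 87.4% and 68.6% of cases, and all coding genes in 55.3% and 41.9%. Cdc6, Mcm5, Ccnb2 and Mki67 had a SALL4 peak in SALL4WT cells only, and Mcm2, Tyms, Aurkb, Bub1b and Plk1 had none in either. Of the 7673 genes of at least 5 FPKM, 1627 had one in SALL4WT cells only and 779 had none in either. Of the 21842 coding genes, these numbers were 3597 and 9084. The active-promoter mark H3K27ac had a peak at 18 replication and 19 mitosis genes with SALL4WT and at 17 and 21 with SALL4delN12, against 87.9% and 93.0% of the genes of at least 5 FPKM and 50% and 59.4% of all coding genes. With a peak score of at least 100, the mitosis genes with H3K27ac in SALL4WT cells numbered 10 rather than 19 and the replication genes 13 rather than 18, beside 74.2% of the genes of at least 5 FPKM and 40.1% of all coding genes. In SALL4delN12 cells the same score left 20 mitosis and 16 replication genes, beside 88.9% and 53.6%. The gap between the forms was thus wider at this score for the mitosis genes, as it was for the genes of at least 5 FPKM. Bub1 and Top2a had an H3K27ac peak with SALL4delN12 only and Mcm2 with SALL4WT only. Of the 7673 genes of at least 5 FPKM, 536 had one with SALL4delN12 only and 148 with SALL4WT only. Of the 21842 coding genes, these numbers were 2320 and 264. The H3K27ac map held 19841 peaks with SALL4WT and 45599 with SALL4delN12, and the SALL4 maps 69475 and 67310, so the maps also differ in how many peaks were called.

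Some features of the whole series bear on the values that follow. From the steps between the lowest FPKM values, the SALL4 libraries were 2.85 to 3.72 times as deep as the JGES day 7 library without BMP4 and the JGE, JGEO and JGESO libraries 2.65 to 3.67 times, while the 9 libraries of the JGES course lay between 1.00 and 1.21. The JGES libraries also differed from the JGE, JGEO and JGESO libraries by transcript composition, as given beside the mixtures. No difference between SALL4 and JGES libraries was computed, and their levels are given within each set. The day 7 JGES libraries stand in both bulk tables, and the later copy is the earlier one multiplied by 0.975 or 0.978, so they were counted once.

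Within each set the same members spanned a wide range of levels. Mcm5 lay between 15.3 FPKM (fragments scaled to transcript length and to the library's mapped total) at day 7 with BMP4 and 55.3 FPKM at day 5 without BMP4 in the 9 JGES libraries, and between 4.21 FPKM with SALL4WT at day 11 and 26.6 FPKM with SALL4WT at day 1 in the 8 SALL4 libraries. Of the JGES libraries, day 5 without BMP4 was the highest for 14 of 18 replication and 12 of 22 mitosis genes, and day 7 without BMP4 for 2 and 8 more. The lowest was day 3 with BMP4 for 7 replication and 16 mitosis genes. Of the SALL4 libraries, the lowest was SALL4WT day 11 for 17 replication genes and SALL4WT day 9 for the other one, and the mitosis genes split between them, 11 and 11. All 40 genes but 1 were highest in a SALL4 library of day 1.

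**Figure D1:**
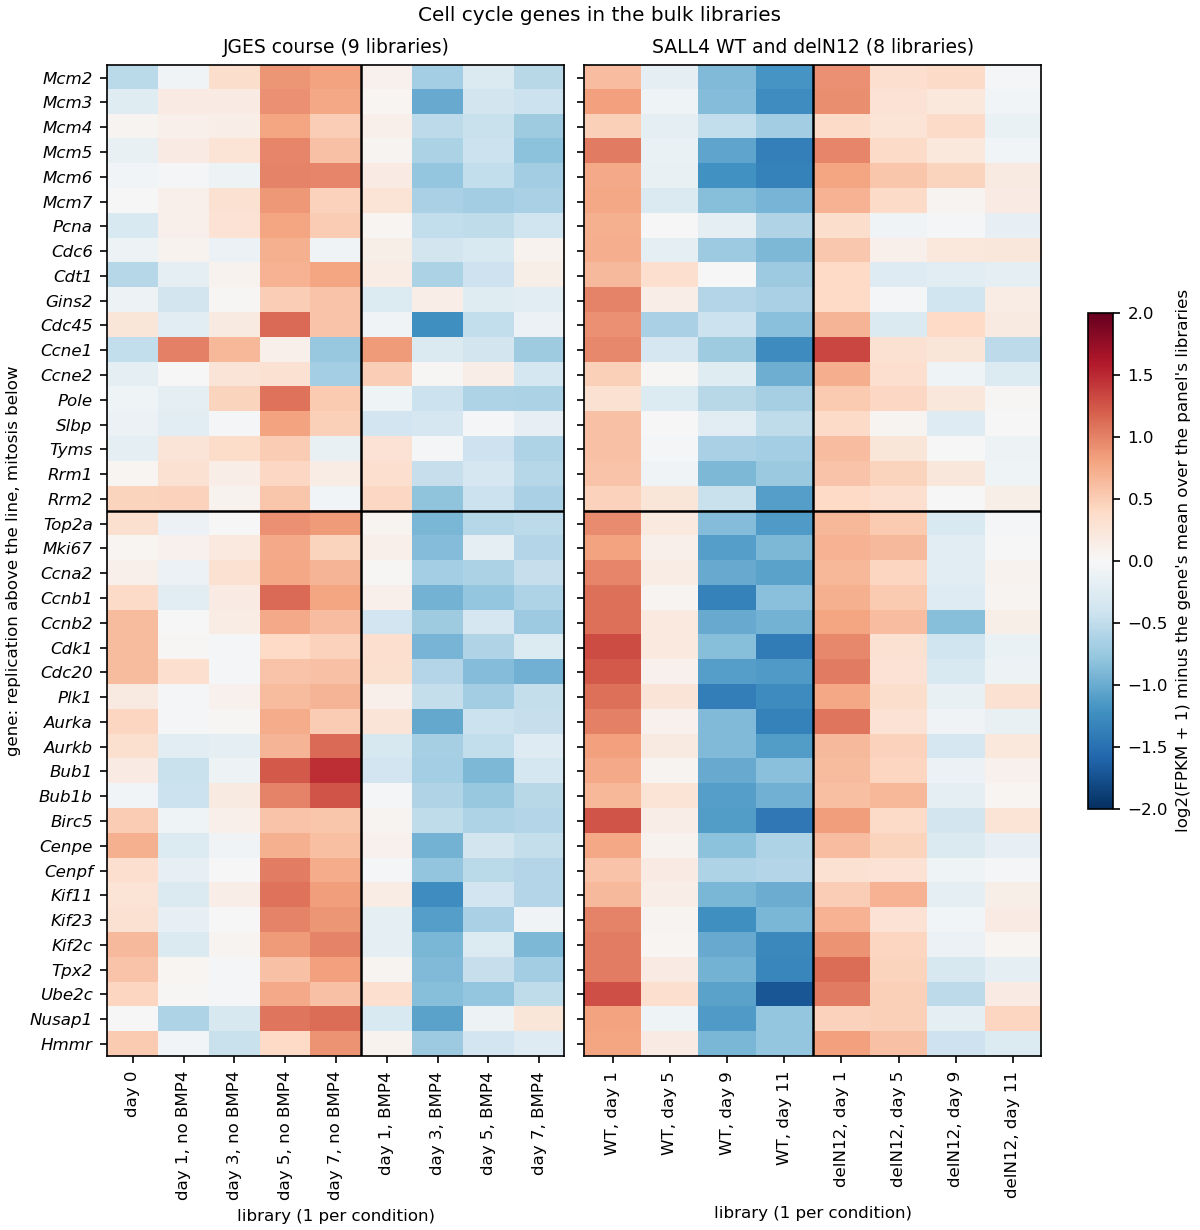
Each row is 1 of the 40 genes and each column 1 library, 9 of the JGES course on the left and 8 of SALL4 alone on the right, coloured by log2(FPKM + 1) minus the gene's mean over the libraries of the same panel. On the left the columns of days 5 and 7 without BMP4 are the highest for most genes, and on the right the SALL4WT columns of days 9 and 11 are the lowest.

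In JGES cells without BMP4, the replication genes stood above day 0 at day 5, as did most of all genes. The median of the mitosis genes first lay below day 0 and then above it. Mcm2 measured 27.4, 38.4, 51.6, 75.2 and 71.2 FPKM at days 0, 1, 3, 5 and 7. Mcm5 measured 24.8, 30.97, 33.6, 55.3 and 41.9 FPKM, and Pcna 84.2, 112, 129, 181 and 149 FPKM. Each of these was highest at day 5. Ccne1, the cyclin E that starts S phase, peaked earlier, at 30.6, 88.3, 69.4, 46.8 and 25.1 FPKM. Rrm2, the subunit of the enzyme that makes deoxynucleotides, stayed between 64.5 and 99.4 FPKM.

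Among the mitosis genes, Top2a, the topoisomerase that untangles the copies, measured 69.1, 50.7, 55.0, 104 and 101 FPKM at the same days, and Ccnb1 48.6, 31.7, 41.8, 82.5 and 65.3 FPKM. Both were lower at day 1 than at day 0 and higher at days 5 and 7. Cdk1 did not share this course, at 30.4, 19.6, 18.7, 26.0 and 26.9 FPKM, and Cdc20, at 91.3, 74.1, 56.8, 87.7 and 88.0 FPKM, returned close to its day 0 level. Bub1, a kinase of the spindle checkpoint, measured 7.89, 4.79, 6.37, 17.4 and 20.9 FPKM, and Bub1b 17.6, 13.3, 20.9, 37.7 and 45.5 FPKM, so that both stood more than 2-fold above day 0 at day 7.

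Changes are differences of log2(FPKM + 1), which understate the change of low genes. At day 5 without BMP4, all 18 replication genes were above day 0, as were 64.4% of the 14778 genes compared, and 7 of them by at least 1 on this scale (20.2% of all genes), with a median difference of 0.89. The farthest above were Mcm2 by 1.42, Cdt1, which loads the helicase, by 1.26, and the polymerase Pole by 1.17, and Rrm2 was nearest to day 0 with 0.12. Of the mitosis genes 19 of 22 were above, 3 by at least 1 (Nusap1 1.09, Bub1b 1.06, Bub1 1.05), with a median of 0.42. The median over all genes was 0.29, and relative to the 500 genes nearest in GC content and length the list medians were 0.58 and 0.08. Relative to those genes, 17 replication genes were higher and 1 lower, and 12 mitosis genes were higher and 10 lower. With the libraries scaled to a common median, or relative to those genes, the replication genes past 1 numbered 2. At day 1 the lists had opposite medians, 0.17 for replication and -0.53 for mitosis, and 21 of 22 mitosis genes were below day 0, as were 47.8% of all genes.

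With BMP4 the course was different from day 3 on. Mcm2 measured 43.1, 24.8, 33.0 and 27.2 FPKM at days 1, 3, 5 and 7 with BMP4, Mcm5 28.8, 17.4, 20.2 and 15.3 FPKM, and Pcna 108, 73.9, 73.2 and 79.1 FPKM. Top2a measured 57.1, 28.7, 36.6 and 37.9 FPKM, Ccnb1 39.9, 18.8, 21.4 and 23.9 FPKM, and Cdc20 73.7, 38.8, 31.5 and 29.7 FPKM. From day 3 each of these was below its value without BMP4 at the same day, and the mitosis genes were also below day 0. At day 3 with BMP4, all 22 mitosis genes lay below day 0 (46.9% of all genes), 16 of them by at least 1 (9.98% of all genes), with a median of -1.25 against -0.31 for the replication genes. The farthest below were Cenpe, a kinetochore motor, by -1.65, Kif2c by -1.56 and Cdk1 by -1.55, and among the replication genes Cdc45, a part of the active helicase, by -1.46 and Rrm2 by -1.24. At day 5 all 22 mitosis genes were below day 0 (46.3% of all genes) with 8 past 1 (9.85%), and at day 7 it was 21 (46.1%) with 6 past 1 (9.47%).

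**Figure D2:**
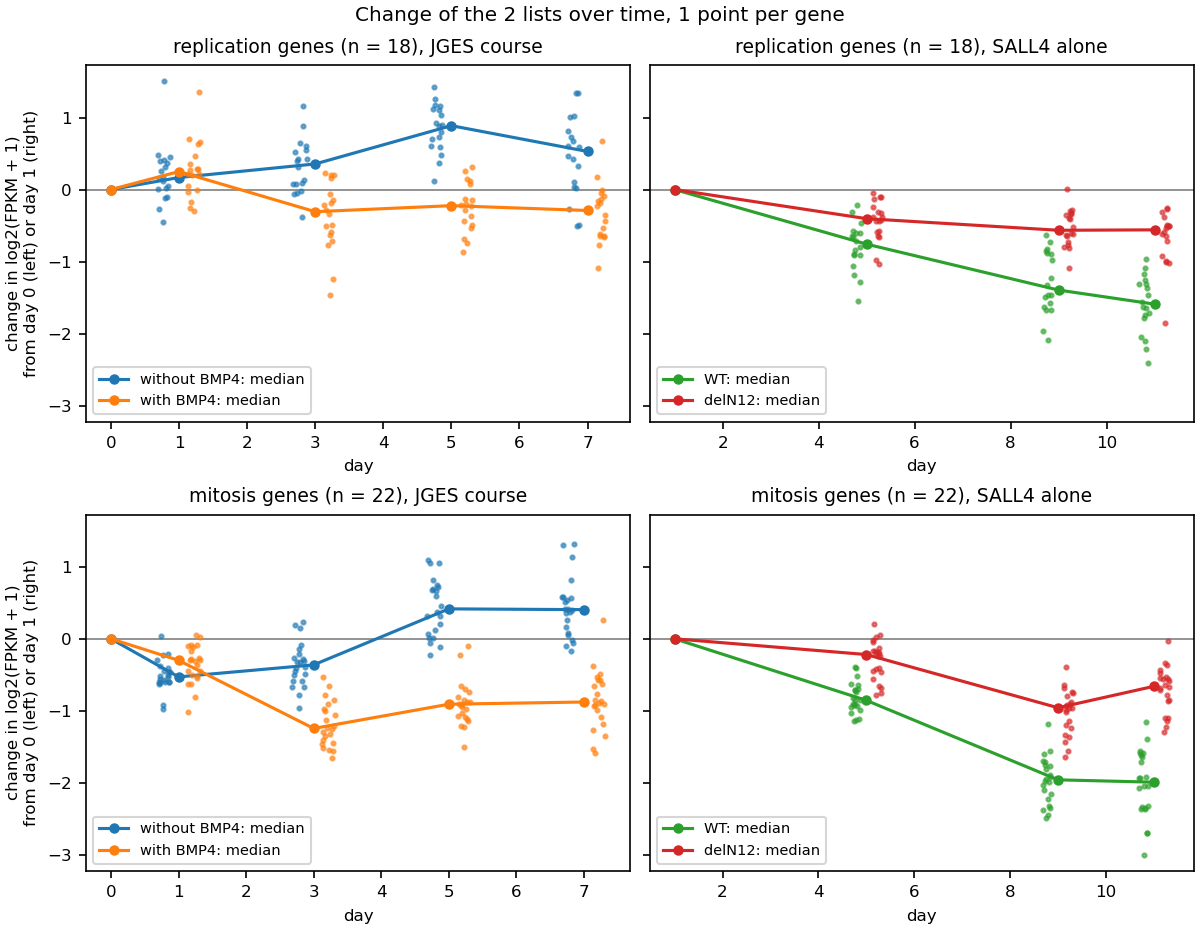
The change in log2(FPKM + 1) is plotted by day, from day 0 for JGES cells without and with BMP4 (left) and from each form's own day 1 for SALL4WT and SALL4delN12 cells (right), with 1 point per gene and a line through the medians of the 18 replication genes (top) or 22 mitosis genes (bottom), each condition being 1 library. The JGES lines part at day 3, and at day 11 the SALL4WT medians, -1.59 and -1.99, lie below those of SALL4delN12, -0.56 and -0.66.

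Set side by side at the same day, JGES cells with BMP4 were close to those without at day 1 and lower afterwards. At day 1 the median differences (with minus without) were 0.04 for replication and 0.14 for mitosis genes, with 0 of 40 genes past 1 (3.75% of all genes were higher and 5.72% lower by that much). At day 3 the medians were -0.75 and -0.87, and 17 of 18 and 22 of 22 genes were lower (57.4% of all genes), 3 and 5 of them by at least 1 (8.99% of all genes). The 5 mitosis genes past 1 became 8 with a pseudocount of 0.1, 3 after rescaling and 2 relative to the genes nearest in GC content and length. At day 5 all 40 were lower, as were 60.1% of all genes, with medians of -1.14 and -1.26, and 11 replication and 20 mitosis genes passed 1 (13.2%), or 7 and 13 relative to the genes nearest in GC content and length. The lowest were Pole (-1.70), Cdc45 (-1.63) and Mcm7 (-1.57) in replication and Bub1 (-2.12), Ccnb1 (-1.90) and Bub1b (-1.76) in mitosis. Ccne2 (-0.17) and Ccne1 (-0.48), the E cyclins, differed least.

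At day 7 the mitosis genes remained lower with BMP4, 22 of 22 (57% of all genes) with 18 past 1 (13.8%) and a median of -1.25, and the replication genes less uniformly, 15 of 18 with 7 past 1 and a median of -0.77. Kif2c measured 24.6 FPKM without and 5.91 FPKM with BMP4 (-1.89), and Bub1 20.9 and 5.17 FPKM (-1.83). Mki67, the proliferation antigen, measured 46.1 and 22.2 FPKM (-1.02), Plk1, a mitotic kinase, 59.7 and 26.1 FPKM (-1.16), and Aurkb, the kinase of the chromosomal passenger complex, 47.5 and 17.4 FPKM (-1.40). The replication genes ranged widely. Mcm6 (-1.66), Mcm5 (-1.40) and Mcm2 (-1.36) were the lowest, while Ccne2 (0.33), Cdc6 (0.15) and Ccne1 (0.05) were not lower. The median over all genes was between -0.02 at day 1 and -0.18 at day 5. In bulk RNA, fewer dividing cells and less RNA of these genes per cell cannot be told apart.

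The BMP4 difference in JGES cells was also fitted over days 1, 3, 5 and 7 with limma, with the day as a block. Days of a course are not replicates, and such a p measures how alike the difference was over the days. The median difference was -0.69 for replication and -0.85 for mitosis, with 17 and 22 genes lower. After Benjamini-Hochberg adjustment over 13879 genes limma called 0 of 40 (0.346% of all genes were called lower), against 12 replication and 21 mitosis genes at an unadjusted p under 0.05 (23.2% of all genes, in either direction). The smallest adjusted p of limma were 0.0935 for Mcm3 (-0.94, SE 0.22) and 0.0745 for Ccnb2 (-0.92, SE 0.18). Without day 1, 12 and 21 genes were called lower, as were 4.51% of all genes, and without day 3, 5 or 7 in turn 0 were.

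Cell cycle genes outside the 40 were counted from fixed lists, beside 60.1% of all genes lower and 13.2% lower by at least 1 at day 5, and 57% and 13.8% at day 7. Of 27 other replication genes, 27 were lower with BMP4 at day 5 (16 past 1, median -1.28), led by Gins1 (-2.21) and Chaf1b (-1.98), and 27 at day 7 (14 past 1). Of 34 other mitosis genes, 34 were lower at day 5 (27 past 1, median -1.19), led by Kif18a (-1.84) and Espl1 (-1.78), and 34 at day 7 (25 past 1), led by Ect2 (-1.77) and Pttg1 (-1.66). Of 33 regulators, 10 were higher and 23 lower with BMP4 at day 7 (2 and 7 past 1), with a median of -0.42. Among them Mybl2, which encodes B-Myb, stood at 69.4 FPKM when BMP4 was absent and at 9.68 FPKM when it was present (-2.72). Without BMP4 it had stood at 4.55, 8.26, 18.0, 40.2 and 69.4 FPKM over the 5 days. The 2 past 1 that were higher with BMP4 were the cyclin-dependent kinase inhibitors Cdkn2a and Cdkn1a, by 1.27 and 1.12.

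Cell type markers differed between the same libraries. The summed level of 6 pluripotency genes (Nanog, Zfp42, Dppa5a, Tdgf1, Utf1 and Sox2) was 487 FPKM at day 5 without BMP4 and 19.1 FPKM with it, with 6 and 1 of the 6 at 1 FPKM or more. The sum of 6 fibroblast genes (Col1a1, Col3a1, Thy1, Pcolce, Lrp1 and Postn), all above 1 FPKM in both, was 108 FPKM without and 741 FPKM with BMP4. Cells with BMP4 thus carried more fibroblast and less pluripotency RNA at the time their cell cycle RNA was lower, and the part of this in the difference was not tested.

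At day 7 BMP4 went with lower cell cycle RNA in JGES cells and with higher cell cycle RNA in JGE cells, which lack the Sall4 virus. In the table of 8 libraries, Mcm5 measured 10.9 FPKM without and 19.6 FPKM with BMP4 in JGE cells, 40.9 and 15.0 FPKM in JGES, 62.3 and 46.1 FPKM in JGEO, and 56.6 and 35.2 FPKM in JGESO. Plk1 measured 9.98 and 20.8 FPKM in JGE cells, 58.2 and 25.6 FPKM in JGES, 50.1 and 37.1 FPKM in JGEO, and 71.7 and 50.4 FPKM in JGESO. Both genes were higher with BMP4 only in JGE cells. Of the 18 replication genes 17 were higher with BMP4 in JGE, as were 45.9% of all genes, with a median of 0.60, and 2 were past 1 (4.28%), Cdt1 by 1.04 and Mcm3 by 1.03. Of the mitosis genes 19 of 22 were higher with a median of 0.13, Plk1 by 0.99, Aurka by 0.84 and Aurkb by 0.77. Counted by level instead, 19 of the 22 reached 1 FPKM in either JGE library, the limit used for all genes. Those below it, Cenpe and Cenpf among them, are still counted by direction here and below. Many of these changes were small: Ccna2 and Cenpe each differed by 0.01.

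The opposite directions held for 33 of the 40 genes (24.6% of all genes), 14 in replication and 19 in mitosis, which were higher with BMP4 in JGE cells and lower in JGES cells. Cdc6, Ccne1 and Ccne2 were higher in both, and Rrm1, Bub1, Cenpf and Nusap1 lower in both. In JGEO cells the medians were -0.29 and -0.12 and in JGESO cells -0.28 and -0.35, both smaller in size than the -0.76 and -1.24 of JGES cells in the same table (13.7% of all genes lower by at least 1). The JGE libraries had a fibroblast sum of 1099 FPKM without and 650 FPKM with BMP4, so there the fibroblast RNA was lower where the cell cycle RNA was higher. Fitted over the 4 mixtures with limma, with the mixture as a block, the BMP4 difference had medians of -0.17 and -0.35, and 0 of 40 genes were called after Benjamini-Hochberg adjustment (0% of 14574 genes called lower), with smallest adjusted p of 0.833 and 0.814 in the lists. At an unadjusted p under 0.05 it was also 0 of 40, and 1024 of all genes (7.03%). Whether the effect of BMP4 differs between the mixtures was not tested.

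**Figure D3:**
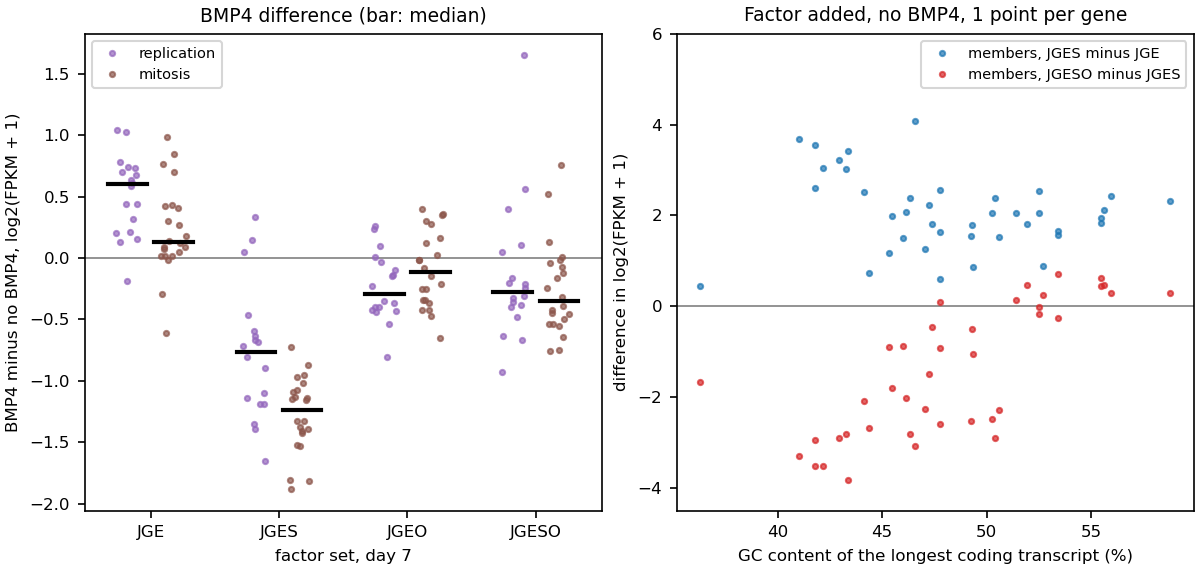
On the left, the difference in log2(FPKM + 1) at day 7 with minus without BMP4 is plotted for each of the 40 genes in the 4 mixtures, with bars at the list medians, which lie above 0 in JGE and are lowest in JGES (-0.76 and -1.24). On the right, the difference between mixtures without BMP4 is plotted against the GC content (percent) of the gene's longest coding transcript, and JGESO minus JGES runs from below 0 at low GC to above 0 at high GC while JGES minus JGE lies above 0 throughout.

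Cell cycle RNA was higher in JGES than in JGE cells, but not in JGESO than in JGEO cells. Without BMP4, JGES was above JGE for all 40 genes (52.3% of all genes), 13 of 18 replication and 22 of 22 mitosis genes by at least 1 (20.1% of all genes), with medians of 1.54 and 2.48. Mki67 measured 1.72 FPKM in JGE and 44.9 FPKM in JGES (4.08), and Bub1 0.667 and 20.4 FPKM (3.68). The fibroblast sum given above for JGE cells without BMP4, of day 7, was far above that for JGES cells without BMP4. The latter was of day 5 and of another library set and depth, so the 2 are not matched. The part of fibroblast RNA in the difference between JGES and JGE was not tested. With BMP4 the medians were 0.19 and 0.95, and 10 mitosis genes passed 1 (12.1%). Adding Oct4 to JGE without BMP4 gave medians of 1.49 and 1.15, with 12 replication and 12 mitosis genes past 1 (10.2%). Adding it with BMP4 gave smaller medians of 0.60 and 0.70, beside 0.098 over all genes. Between JGEO and JGESO, libraries of the same set, adding Sall4 without BMP4 gave medians of -0.77 for replication, with 15 of 18 lower (61.4% of all genes) and 6 by at least 1 (20.7%; 2 relative to the genes nearest in GC and length), and -0.13 for mitosis, with 12 of 22 lower and 3 by at least 1. With BMP4 the medians were -0.62 and -0.36, with 16 and 15 lower (63.2%) and 4 and 3 by at least 1 (21.2%). The all-gene medians of these contrasts were -0.26 and -0.29. Relative to the 500 genes nearest in GC content and length, the list medians were -0.26 and 0.43 without and -0.26 and 0.27 with BMP4, so that the direction of the mitosis medians was the opposite. The mitosis median also changed sign after rescaling without BMP4 (0.040), and with BMP4 among members of at least 5 FPKM (0.064).

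JGESO and JGES cells differed in opposite directions among the mitosis genes. In JGESO cells without BMP4, Cdc20 measured 118 FPKM against 85.8 FPKM in JGES, Ube2c 134 against 97.7 FPKM and Plk1 71.7 against 58.2 FPKM. Top2a measured 6.05 against 98.1 FPKM, Mki67 4.45 against 44.9 FPKM and Hmmr, a spindle protein, 1.71 against 30.02 FPKM. JGE cells without BMP4, with no Oct4 virus, were low for the last 3 as well, at 8.33 FPKM of Top2a, 1.72 FPKM of Mki67 and 1.64 FPKM of Hmmr, and had 19.0, 24.7 and 9.98 FPKM of Cdc20, Ube2c and Plk1. The 5 mitosis genes that were higher in JGESO (Cdk1, Cdc20, Plk1, Aurka and Ube2c) had transcript GC contents of 47.8% to 56.0% with a median of 55.5%, and the 17 that were lower (54.7% of all genes were) 41.0% to 52.5% with a median of 46.1%. Their median lengths were 2191 and 3526 bases. The same held across all genes, with a median JGESO minus JGES difference of -1.76 in genes below 44.7% GC and 0.83 in genes above 56.4% GC.

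Beside that trend, the list medians for JGESO minus JGES without BMP4, -0.90 for replication (8 past 1, 32.7% of all genes lower by at least 1) and -2.53 for mitosis (14 past 1), came to -0.32 and -1.10 relative to the 500 genes nearest in GC and length. With BMP4 they were -0.27 and -1.17 (12 mitosis genes past 1, 24.9%), and -0.0040 and -0.31 relative to those genes. Relative to them 4 replication genes without and 4 mitosis genes with BMP4 were past 1. For JGES minus JGE without BMP4 the medians ran from 0.46 in the genes lowest in GC to -0.15 in the highest, so JGES libraries were the higher ones in low-GC genes in both contrasts. Library set, depth and mixture coincide here and cannot be told apart, while each BMP4 comparison within a mixture was made between libraries of 1 set.

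In cells given SALL4 alone, cell cycle RNA was lower at later days with both forms and lower with SALL4WT than with SALL4delN12 from day 5. Mcm5 measured 26.6, 11.2, 5.47 and 4.21 FPKM at days 1, 5, 9 and 11 with SALL4WT and 25.3, 16.4, 14.5 and 11.9 FPKM with SALL4delN12. Ccnb1 measured 33.9, 16.0, 5.38 and 8.15 FPKM with SALL4WT and 25.6, 22.6, 12.7 and 16.0 FPKM with SALL4delN12. Ube2c measured 105, 53.9, 19.8 and 12.3 FPKM with SALL4WT and 88.3, 59.7, 29.4 and 47.8 FPKM with SALL4delN12. The forms started close together at day 1 and lay apart by day 9. Pcna was 1 of several exceptions among the replication genes, at 156, 94.2, 84.0 and 62.3 FPKM and 122, 90.8, 92.6 and 85.3 FPKM, so that at day 5 the forms were nearly level. At day 5, 3 replication genes were lower with SALL4delN12, the farthest by -0.59. Averaged over the 4 days, the difference was 0.05 for Pcna, -0.14 for Cdt1, 0.06 for Gins2 and 0.08 for Slbp.

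Against their own day 1, SALL4WT cells at day 11 were lower for all 40 genes (48% of all genes), 17 of 18 replication and 22 of 22 mitosis genes by at least 1 (8.76% of all genes), with medians of -1.59 and -1.99. The lowest were Mcm5 (-2.41), Ccne1 (-2.21) and Mcm6 (-2.11), and Ube2c (-2.998), Cdk1 (-2.70) and Birc5 (-2.69), the last a partner of Aurkb. At day 9 the corresponding counts were 11 and 22 (6.51%) and at day 5 they were 4 and 4 (4.19%). SALL4delN12 cells at day 11 were also lower for all 40 (48.3% of all genes), but 3 and 5 passed 1 (4.61%), with medians of -0.56 and -0.66. At day 9, 1 and 9 did (3.54%), the latter 14 with a pseudocount of 0.1.

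Compared at the same day, SALL4delN12 was not above SALL4WT at day 1, with medians of -0.07 and -0.22. At day 5, 15 replication and 22 mitosis genes were higher with SALL4delN12 (48.9% of all genes), none of them by 1 (4.67%), with medians of 0.37 and 0.30. At day 9 the medians were 0.86 and 0.78, with 5 and 3 genes past 1 (6.09% of all genes; 9 replication genes with a pseudocount of 0.1), and at day 11 they were 0.77 and 1.11, with all 40 higher (50.4%) and 8 and 15 past 1 (6.55%). Mcm6 (1.53), Mcm5 (1.31) and Rrm2 (1.22) led the replication genes at day 11, and Ube2c (1.88), Birc5 (1.71) and Plk1 (1.55) the mitosis genes. The median over all genes lay between -0.03 and 0.03 in these comparisons, and by GC the medians ran from -0.13 in the lowest to 0.11 in the highest genes at day 11. Fitted over the 4 days with limma, with the day as a block, the difference had medians of 0.52 and 0.53. After Benjamini-Hochberg adjustment limma called 3 replication genes higher, as were 5.73% of 12919 genes, namely Ccne1 (0.68, SE 0.12, adjusted p = 0.0201), Mcm2 (0.81, SE 0.19, adjusted p = 0.0427) and Pole (0.60, SE 0.14, adjusted p = 0.0469). It called 0 mitosis genes (smallest adjusted p = 0.109, for Hmmr), against 11 replication and 8 mitosis genes at an unadjusted p under 0.05 (31.5% of all genes, in either direction). Without day 1 it called 10 and 10 higher, as were 9.68% of all genes, and without day 5, 9 or 11 in turn 0.

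Of the other lists at day 11, 27 of 27 other replication genes were higher with SALL4delN12 (8 past 1), beside 50.4% and 6.55% of all genes, as were 31 of 34 other mitosis genes (13 past 1, led by Cdca8 with 1.69 and Tacc3 with 1.53). Of 33 regulators 23 were higher and 10 lower (6 and 1 past 1), with a median of 0.39. Mybl2 was higher by 1.48 at day 9 and by 1.62 at day 11. Cdkn1c, which encodes the cell cycle inhibitor p57, was higher as well, at 30.5, 15.7, 14.7 and 43.4 FPKM with SALL4WT and 126, 81.3, 164 and 141 FPKM with SALL4delN12 at days 1, 5, 9 and 11. Markers of other cells differed too. The summed level of 6 macrophage genes (C1qa, C1qb, Csf1r, Cd68, Tyrobp and Fcer1g) was 117, 37.6, 28.4 and 27.2 FPKM with SALL4WT and 180, 201, 192 and 407 FPKM with SALL4delN12, with 5 or 6 of the 6 at 1 FPKM or more in each library. The sum of 6 genes listed for placenta (Krt8, Krt18, Tfap2c, Spint1, Gata3 and Elf3) was 110 to 148 FPKM with SALL4WT and 524 to 662 FPKM with SALL4delN12. Not all of these 6 are highest in placenta-like cells, as given with the single cells below. The primitive endoderm sum was 20.3, 16.2, 19.7 and 24.2 FPKM with SALL4WT and 15.1, 17.9, 60.9 and 171 FPKM with SALL4delN12 at days 1, 5, 9 and 11. The part of these marker differences in the cell cycle difference was not tested.

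Single cells of JGES cultures at day 7, 11335 with BMP4 and 8685 without, carry the cell groups named in the deposited columns. With BMP4 these were 2372 PrECLC (primitive endoderm-like, from the column label ParE, whose letters parietal endoderm would fit as well), 1453 endothelial, 385 placenta-like and 7125 intermediate cells. Without BMP4 they were 1825 pluripotent, 142 PrECLC, 507 endothelial and 6211 intermediate cells. The 6 primitive endoderm genes summed to 1321 CPM (counts scaled to the same total in each group) in PrECLC against 44.3 CPM in intermediate cells with BMP4. The placenta genes summed to 2861 CPM in placenta-like cells, 928 CPM in PrECLC, 495 CPM in intermediate and 235 CPM in endothelial cells with BMP4. Krt8 and Krt18 gave 995 and 1641 CPM of the sum in placenta-like cells and 359 and 538 CPM of that in PrECLC. Tfap2c and Spint1 were also highest in placenta-like cells. Gata3 was highest in intermediate cells with BMP4 (40.2 against 28.8 CPM in placenta-like cells) and Elf3 in pluripotent cells (38.0 against 11.8 CPM). The pluripotency genes summed to 7156 CPM in pluripotent against 363 CPM in intermediate cells without BMP4. The endothelial genes summed to 596 CPM in endothelial cells with and 263 CPM without BMP4, and the latter also held 306 CPM of the pluripotency genes. PrECLC without BMP4 held 967 CPM of the primitive endoderm genes and 876 CPM of the pluripotency genes. The macrophage genes reached 77.9 and 59.7 CPM in the 2 endothelial groups, against at most 25.7 CPM in the others. Counts were summed over the cells of a group, each condition is 1 sample, and intervals cover counting error only. Of the barcodes, 2 occurred in both samples.

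With BMP4, the 3 groups named for a cell type held far more cell cycle RNA than the intermediate cells. The 22 mitosis genes summed to 2744 CPM in PrECLC (95% Poisson interval 2731 to 2757), 2167 CPM in the endothelial cells (2151 to 2182) and 2563 CPM in the placenta-like cells (2534 to 2592), but to 804 CPM in those called intermediate (799 to 808). The 18 replication genes summed to 1544, 1575, 1369 and 578 CPM in the same order. Without BMP4 the sums for mitosis were 1693 CPM in pluripotent (1678 to 1707), 1319 CPM in PrECLC (1268 to 1372), 1263 CPM in endothelial (1239 to 1288) and 1131 CPM in intermediate cells (1124 to 1138). The intermediate cells with BMP4 were thus lowest of all 8 groups and the other groups with BMP4 the highest, while the groups without BMP4 lay between them. The fibroblast genes differed between the groups as well, at 1042 CPM in the intermediate cells with BMP4 and 101 to 104 CPM in the other 3 groups with BMP4. Without BMP4 they stood at 42.0 CPM in pluripotent, 25.9 CPM in PrECLC, 65.0 CPM in endothelial and 197 CPM in intermediate cells. Their part in the differences was not tested. For replication, the sums without BMP4 were 946, 699, 665 and 602 CPM, and the lowest was again the intermediate group with BMP4.

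**Figure D4:**
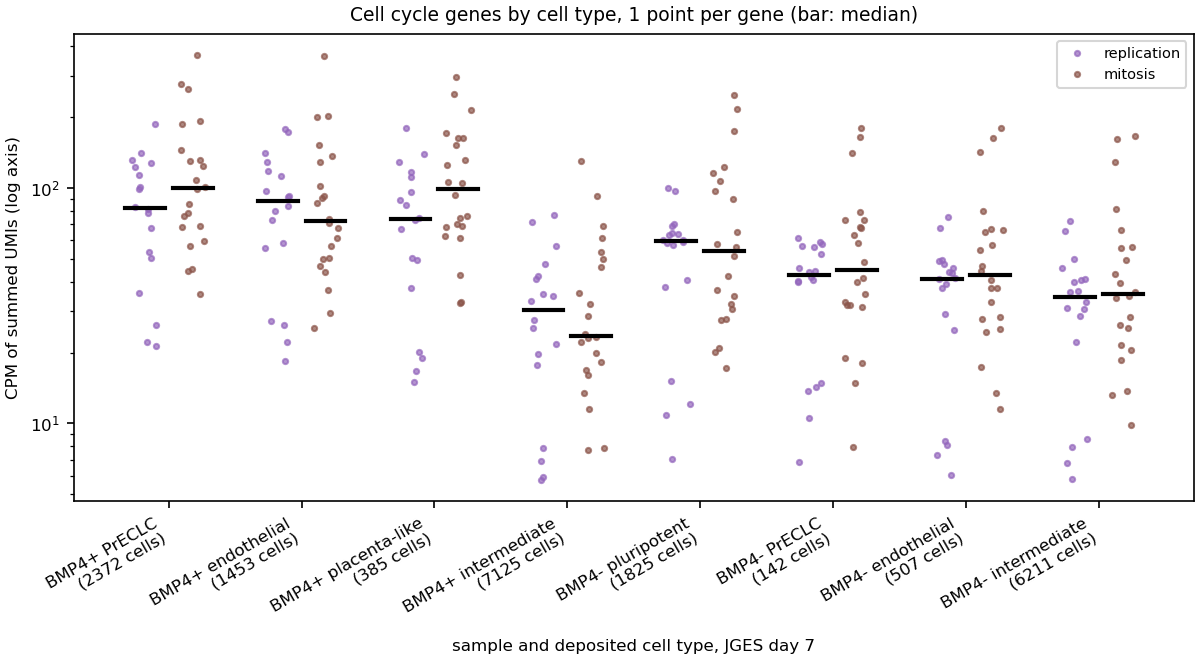
CPM on a log axis of each of the 18 replication and 22 mitosis genes, 1 point per gene, in each of the 8 cell groups, with bars at the list medians. The medians are lowest in intermediate cells with BMP4, at 30.3 CPM for replication and 23.6 CPM for mitosis, against 82.3 and 99.7 CPM in PrECLC with BMP4.

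The ratio to the intermediate cells of the same sample was above 1 for nearly every gene with BMP4. In PrECLC all 40 genes were higher (50% of all genes), 16 replication and 22 mitosis genes at least 2-fold (12.7% of all genes), with median log2 ratios of 1.58 and 1.83. In endothelial cells 16 and 20 passed 2-fold (10.1%), with medians of 1.60 and 1.53, and in placenta-like cells 15 and 22 (12.8%), with medians of 1.39 and 1.87. Kif23, a kinesin of the last step of division, was the highest mitosis gene in each of the 3 groups (2.87, 2.46 and 2.47). Cdc6, which loads the helicase with Cdt1, was the highest replication gene in PrECLC (2.59) and endothelial cells (2.202), and Mcm5 in placenta-like cells (1.97). Ccne1 was the lowest of the replication genes in each of them, at 0.27, 0.92 and -0.16.

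The order of the groups differed between genes. Mcm5 stood at 83.0, 84.2, 84.8 and 21.7 CPM in PrECLC, endothelial, placenta-like and intermediate cells with BMP4 and at 60.2, 40.2, 29.1 and 28.7 CPM in pluripotent, PrECLC, endothelial and intermediate cells without it. Top2a stood at 367, 362, 295 and 130 CPM with BMP4 and 216, 164, 180 and 161 CPM without. Ccnb1 stood at 130, 86.3, 125 and 28.6 CPM and at 107, 73.01, 65.3 and 55.7 CPM. Mki67 stood at 187, 152, 164 and 61.4 CPM with BMP4 and 27.5, 39.7, 44.2 and 34.8 CPM without, so that each group with BMP4, the intermediate one included, was above every group without it, and the pluripotent group was the lowest. Of the 22 mitosis genes 13 were highest in PrECLC with BMP4, 7 in placenta-like and 2 in pluripotent cells, and 9 of the 18 replication genes were highest in endothelial cells with BMP4. The intermediate cells with BMP4 were lowest for 16 mitosis and 9 replication genes.

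Without BMP4 the pluripotent cells were higher than their intermediate cells by a median log2 ratio of 0.79 for replication (16 of 18 higher beside 44.6% of all genes, 2 at least 2-fold beside 10.9%) and 0.57 for mitosis (21 of 22, 2 at least 2-fold). Mcm5 (1.07) and Cdc20 (1.18) led the lists. The ratios of PrECLC (0.38 and 0.27) and endothelial cells (0.08 and 0.22) were smaller. At 4000 UMIs a cell, Dppa5a, a pluripotency gene, had a UMI in 98.1% of pluripotent cells, 64.8% of PrECLC, 58.6% of endothelial and 62.7% of intermediate cells without BMP4, and in 0.138% to 1.82% of the groups with BMP4. Nanog had one in 29.7% of pluripotent and 2.17% of intermediate cells without BMP4. The part of free RNA in the ratios without BMP4 was not tested. Among the regulators, Mybl2 was higher in pluripotent than in intermediate cells by 3.28 and in PrECLC than in intermediate cells with BMP4 by 2.59, while Ccnd1 and Cdkn1a were lower in the latter by -3.15 and -2.61. Of 27 other replication genes 27 were higher in PrECLC with BMP4 (24 at least 2-fold), beside 50% and 12.7% of all genes, and of 34 other mitosis genes 33 (32 at least 2-fold), Ckap2 being lower.

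Cells were thinned to 4000 UMIs each so that single cells could be compared. The 22 mitosis genes then gave a median of 8 UMIs a cell in PrECLC, 4 in endothelial cells, 7 in placenta-like cells and 0 in the intermediate cells with BMP4, and 6, 3, 3 and 3 UMIs in pluripotent, PrECLC, endothelial and intermediate cells without it. In 4213 of the 7125 intermediate cells with BMP4 (59.1%) no mitosis UMI was left, so 40.9% held 1 or more (95% exact binomial interval 39.7% to 42.0%, 72.2% before thinning), against 80.4% (79.4% to 81.4%, 94.6% before thinning) of the intermediate cells without BMP4. At 5 or more UMIs the shares were 71.0%, 48.2%, 62.3% and 15.8% with BMP4 and 64.9%, 39.4%, 37.9% and 35.1% without. At 10 or more they were 44.7%, 29.6%, 43.1% and 10.4% and 19.8%, 20.4%, 18.5% and 13.5%. The curves of the 2 intermediate groups crossed, at 12 or more UMIs with 8.98% with and 8.71% without BMP4, and at 20 or more the shares were 4.58% and 0.966%. For the replication genes, 67.3% and 82.5% of these cells held 1 or more UMIs, 15.9% and 14.8% held 5 or more, and 4.41% and 0.821% held 10 or more. The intermediate group with BMP4 thus had a larger share both of cells with no UMI of these genes and of cells with many. Dppa5a had a UMI in 62.7% of the intermediate cells without BMP4 and in 0.295% of those with it. The part of free RNA in these shares was not tested.

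**Figure D5:**
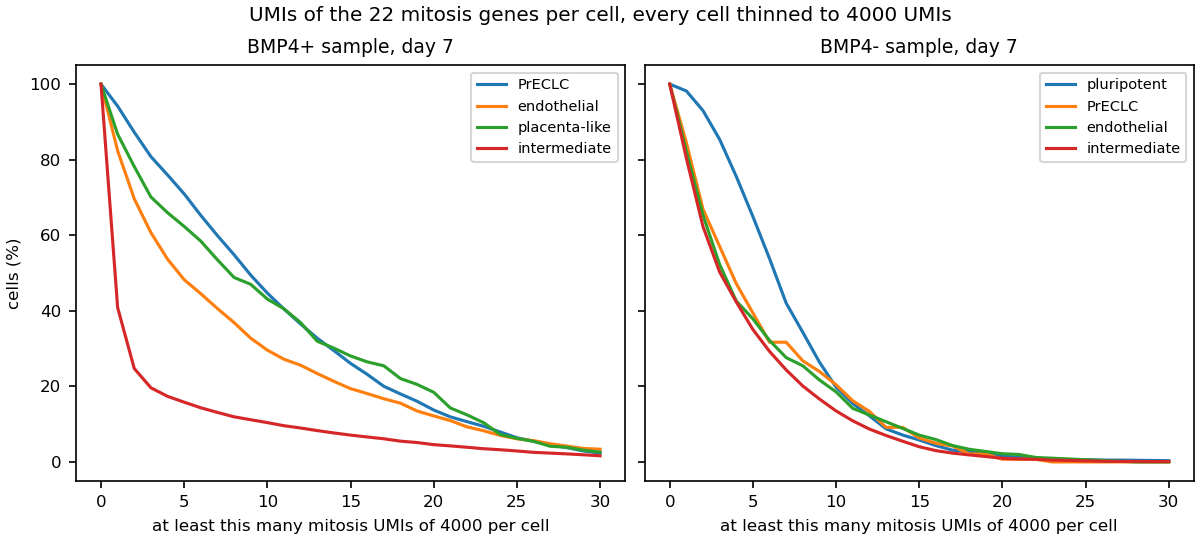
Share of cells (percent) with at least a given number of UMIs of the 22 mitosis genes, after thinning each cell to 4000 UMIs, by cell group. The curve of the intermediate cells with BMP4 starts at 40.9% at 1 UMI, below all others, and that of PrECLC with BMP4 is at 44.7% at 10 UMIs.

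Relative to the mean, the spread between cells was widest in the intermediate cells with BMP4, with a variance of 16.2 times the mean of mitosis UMIs, against 3.20 in pluripotent cells and 5.16 to 10.0 in the other groups. Their standard deviation, 6.82 UMIs, was below the 8.06 of PrECLC, 8.78 of endothelial and 8.89 of placenta-like cells with BMP4. Cells with at least 5 UMIs of both lists made up 48.9% of PrECLC, 32.1% of endothelial, 43.6% of placenta-like and 8.39% of intermediate cells with BMP4, and 24.8% of pluripotent and 5.26% of intermediate cells without. Depth moved with these values. Within the intermediate cells with BMP4, split by depth into 3 equal parts, the shallowest part (median 12072 UMIs) held 461 CPM of mitosis RNA and the deepest (33757 UMIs) 917 CPM. In PrECLC with BMP4 it was 1778 and 3154 CPM, and in pluripotent cells 1723 and 1780 CPM. The shallowest endothelial cells with BMP4 (13733 UMIs) held 1178 CPM. The part of depth in the differences between groups was not tested.

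The bulk and single-cell readouts of day 7 JGES cells are given side by side because they differ. In bulk, 22 of 22 mitosis genes were lower with BMP4 by a median of -1.25. Over all single cells, 13 of 22 mitosis genes (2 at least 2-fold) and 16 of 18 replication genes (4 at least 2-fold) were higher with BMP4, as were 71.3% of the 15064 genes compared, 30.1% at least 2-fold. The median log2 ratios were 0.27 and 0.33, beside 0.52 over all genes. The summed levels were 1501 CPM with and 1278 CPM without BMP4 for mitosis, and 962 and 691 CPM for replication. At 4000 UMIs a cell the means were 5.24 and 4.79 mitosis UMIs and 3.68 and 2.75 replication UMIs. In the single cells both sums were thus higher with BMP4, with list medians below the all-gene median. For intermediate cells alone the ratios were -0.02 for replication and -0.64 for mitosis against an all-gene median of 0.48, with 3 mitosis genes at least 2-fold lower (8.2% of all genes). These 2 groups also differed in fibroblast genes, 1042 CPM with and 197 CPM without BMP4, and in pluripotency genes, 19.7 and 363 CPM. Within a named group BMP4 went with higher values, 1.27 and 0.88 in endothelial cells (12 and 10 genes at least 2-fold higher, 25% of all genes) and 1.21 and 1.14 in PrECLC (12 and 13, 28.5%), against all-gene medians of 0.49 and 0.55. In endothelial cells the pluripotency genes summed to 4.15 CPM with and 306 CPM without BMP4, and the endothelial genes to 596 and 263 CPM. In PrECLC the pluripotency genes summed to 23.05 and 876 CPM, and the primitive endoderm genes to 1321 and 967 CPM. Most of the pluripotency sums without BMP4 was Dppa5a, at 261 CPM in intermediate cells, 253 CPM in endothelial cells and 809 CPM in PrECLC. The part of these marker differences in the higher values was not tested. The labels list the bulk libraries and the single-cell samples as separate samples, 1 of each per condition, and the difference between the readouts was not tested.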

How the data were processed

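The bulk values are FPKM, which the authors made by trimming with Trim Galore 0.6.4, aligning to mm10 with HISAT2 2.2.1 and estimating with StringTie 2.2.1. The single-cell values are UMI counts deposited by the authors from STARsolo with a cell group in each column name, and of 30769 cell columns 10749 belong to other samples and were not used. Peaks carry a score from MACS 1.4.2 on Bowtie2 2.4.5 alignments, as deposited by the authors, with Cut&Tag replicates merged before calling. Reads of Cut&Tag and ATAC-seq were not reprocessed here.

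Changes were differences of log2(FPKM + 1) between libraries of the same table, with genes of at least 1 FPKM in either library as the background. Single-cell counts were summed by group, scaled to CPM over all listed genes and compared as log2 ratios for genes with at least 100 UMIs in the 2 groups together. Shares used cells thinned to 4000 UMIs, below which no cell lay. No doublet caller was run, and leaving out the deepest 6% of cells was an alternative. Each condition had 1 sample, so single contrasts were not tested. Chosen after seeing the data, the difference with BMP4 (over 4 days in JGES, or over 4 mixtures) and between SALL4 forms (over 4 days) was fitted on log2(FPKM + 1) with limma 3.58.1 (R 4.3.3), with the day or mixture as a block, for genes averaging at least 1 FPKM, with a call at a Benjamini-Hochberg adjusted p of 0.05. The members and all gene lists were chosen with earlier results of these data known. Genes were named from the largest differences in both directions and from the fixed examples Mcm5, Pcna, Ccne1, Rrm2, Top2a, Mki67, Ccnb1, Plk1 and Aurkb, as far as each comparison is described. Other genes named were chosen after their values were seen. Alternatives were a pseudocount of 0.1, a minimum of 5 FPKM, rescaling, thinning, other peak windows and scores, and an adjustment for GC content and length. The scripts were tested on simulated data (Python 3.11.15, NumPy 2.4.6, pandas 2.3.3, SciPy 1.17.1, Matplotlib 3.10.9).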

Additional observations from a re-analysis of the deposited data

Results flagged for a closer look

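Opposite directions of the same contrast drew attention in 2 places, each for both gene lists. The median change with BMP4 at day 7 was 0.60 in JGE and -0.76 in JGES cells for the 18 replication genes, and 0.13 in JGE and -1.24 in JGES cells for the 22 mitosis genes, in log2(FPKM + 1). The median change from day 0 to day 5 in JGES cells was 0.89 without and -0.22 with BMP4 for replication, and 0.42 without and -0.91 with BMP4 for mitosis. With 1 library per condition, the difference between the paired values was not tested, and the day 5 values share the day 0 library.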

How the results depend on the processing

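Of 1243 values recomputed under alternatives, 1114 moved by less than 0.25 (log2), within 1.5 times or within their counting interval, 127 moved further and 2 reversed, where a change of sign counts as reversed only for values of at least 0.25 in size (log2) before. Of 629 for single members, 551 were within these limits and 0 reversed. The adjustment for GC content and length was chosen after seeing the data. Under it, JGES at day 5 without BMP4 against day 0 gave list medians of 0.58 and 0.079 (0.89 and 0.42 before), and 2 rather than 7 replication genes past 1, as did rescaling. With minus without BMP4 at day 5 it left 7 replication and 13 mitosis genes past 1 (11 and 20 before). At day 3 the mitosis genes past 1, 5 as reported, were 8 with the smaller pseudocount, 3 after rescaling and 2 with the adjustment. JGESO minus JGES without BMP4 came to -0.32 for replication (4 past 1) and -1.10 for mitosis, and with BMP4 to -0.0040 and -0.31 (4 mitosis genes past 1). JGESO minus JGEO without BMP4 came to -0.26 for replication (2 past 1, 6 before) and 0.43 for mitosis (-0.13 before, and 0.040 after rescaling), and with BMP4 to -0.26 for replication. Its mitosis median with BMP4, -0.36 as computed without adjustment, was 0.27 with it and 0.064 among members of at least 5 FPKM, both reversed, and -0.72 with the smaller pseudocount. JGEO minus JGE without BMP4 had a mitosis median of 1.65 among members of at least 5 FPKM. The smaller pseudocount gave 9 replication genes past 1 at day 9 for SALL4delN12 minus SALL4WT (5 as reported), a mitosis median of -2.23 for SALL4WT day 9 minus day 1, and 14 mitosis genes past 1 for SALL4delN12 day 9 minus day 1. The causes of these shifts were not tested beyond what each alternative builds in.

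Thinning brought the replication ratio of PrECLC to intermediate cells without BMP4 to 0.12 from 0.38. Without thinning, the shares of cells with 1 or more UMIs for replication and mitosis were 99.9% and 98.8% in PrECLC, 99.8% and 96.5% in endothelial, 99.5% and 98.2% in placenta-like and 95.4% and 72.2% in intermediate cells with BMP4. Without BMP4 they were 100% and 99.9% in pluripotent, 98.6% and 95.1% in PrECLC, 97.4% and 97.6% in endothelial and 97.0% and 94.6% in intermediate cells. With a score of at least 100, 10 mitosis genes had H3K27ac in SALL4WT cells and 20 in SALL4delN12 cells. Of the samples compared, the 2 single-cell samples alone carry a replicate number in their titles, the same one in both, which allows no fit with the replicate as a block. Bulk libraries were paired by day or mixture in the limma fits. In these, leaving out day 1 changed the calls from 0 to 12 replication and from 0 to 21 mitosis genes lower with BMP4 in JGES cells, and from 3 to 10 and from 0 to 10 genes higher with SALL4delN12. Leaving out day 5, 9 or 11 changed the latter from 3 to 0 replication genes. The bulk tables give FPKM, so absolute depth is unknown and low values have no interval.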

Other observations

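Regulators of the cell cycle outside the 40 genes differed between the same groups of single cells. Intermediate cells with BMP4 were above intermediate cells without it by a log2 ratio of 2.44 for Cdkn1c, which encodes the inhibitor p57, and by 2.39 for the G1 cyclin Ccnd1, beside a median of 0.48 over all genes. Pluripotent cells lay below the intermediate cells of their own sample for Cdkn1c (-2.62) and for the cyclin Ccnd2 (-2.77). In JGE cells at day 7 in bulk, 21 of 27 other replication genes were higher with BMP4, 1 of them by at least 1 (Uhrf1, 1.12), and 22 of 34 other mitosis genes were higher, 3 of them by at least 1, among them Cks2 (1.15). Of all genes 45.9% were higher and 4.28% by at least 1. Each of these compares 1 sample with 1 other, and was not tested.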
